A study of Mus musculus with 12 samples.

Results

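The genes described here are 10 transcription factor and immediate early genes: Fos, Fosb, Jun, Junb, Jund, Egr1, Ier2, Atf3, Klf4 and Klf6. They were chosen by name, as every probe set whose single gene symbol in the platform annotation is one of these 10. That rule found 17 probe sets of the 45037 on the array, which stand for 10 of the 18193 genes measured. Klf6 had 5 probe sets, Jun, Jund and Klf4 had 2 each, and the other members had 1 each.

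Neural stem cells of the adult subventricular zone, the germinal layer beside the lateral ventricles that makes new olfactory bulb neurons, were sorted fresh from male C57B6J mice by flow cytometry. The design compares a quiescent state, the same state 48 h after irradiation (called irradiated here) and an activated state. RNA was amplified with NuGEN Ovation Pico, a method for small inputs, labelled with biotin and hybridised to an Affymetrix MOE 430 2.0 array. The table held values for 3 quiescent (replicates 1, 2 and 4), 4 irradiated (replicates 1 to 4) and 3 activated (replicates 1 to 3) samples of the 12 described. All groups share sex, strain, tissue and preparation, and the labels name no genetic alteration. The sources used here do not give the radiation dose, the sort markers or how many animals stand behind a sample. Nothing says that replicates came from separate animals, so p-values reflect no more than the spread of these samples, which could be technical.

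AP-1 is a dimer in which a Jun protein is held by a leucine zipper to a Fos protein, to another Jun protein or to an ATF protein. Fos, Fosb, Jun, Junb, Egr1, Ier2 and Atf3 are immediate early genes: growth factors, neuronal activity or stress raise their RNA within minutes, without new protein synthesis, through factors such as SRF, its partner Elk1 and CREB that are already in the nucleus. The same genes are also known to respond to the enzymatic dissociation and sorting of live cells. In the subventricular zone, quiescent stem cells are slowly cycling astroglia-like cells, and activated ones divide and express the EGF receptor.

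Promoter sequence from RefSeq (assembly GRCm38.p6) was found for 8 of the 10 members (all but Egr1 and Ier2), as the 250 bases before the annotated start of transcription. The sequences of 4 members are shown because CREB, ATF and AP-1 proteins share one family of short target motifs, and these members carry its variants. They are written 5′ to 3′ on the strand of the gene, and capitals mark a match to TGACG, TGACNTCA or TGANTCA on either strand.
Fos, chr12:85473640-85473889, plus strand: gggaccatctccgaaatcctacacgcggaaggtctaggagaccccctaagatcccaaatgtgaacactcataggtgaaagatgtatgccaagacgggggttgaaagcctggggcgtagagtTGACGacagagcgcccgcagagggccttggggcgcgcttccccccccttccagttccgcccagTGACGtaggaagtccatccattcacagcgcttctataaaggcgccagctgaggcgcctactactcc
Jun, chr4:95052223-95052472, minus strand: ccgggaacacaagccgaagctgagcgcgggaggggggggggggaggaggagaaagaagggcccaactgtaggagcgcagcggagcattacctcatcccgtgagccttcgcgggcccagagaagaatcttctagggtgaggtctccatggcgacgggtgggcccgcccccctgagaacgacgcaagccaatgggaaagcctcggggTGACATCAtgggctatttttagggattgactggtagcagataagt
Atf3, chr1:191183334-191183583, minus strand: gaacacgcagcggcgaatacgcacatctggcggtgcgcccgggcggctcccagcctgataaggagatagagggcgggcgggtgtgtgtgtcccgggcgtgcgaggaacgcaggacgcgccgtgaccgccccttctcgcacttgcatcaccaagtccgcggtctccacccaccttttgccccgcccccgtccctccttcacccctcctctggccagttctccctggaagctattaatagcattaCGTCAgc
Klf6, chr13:5861239-5861488, plus strand: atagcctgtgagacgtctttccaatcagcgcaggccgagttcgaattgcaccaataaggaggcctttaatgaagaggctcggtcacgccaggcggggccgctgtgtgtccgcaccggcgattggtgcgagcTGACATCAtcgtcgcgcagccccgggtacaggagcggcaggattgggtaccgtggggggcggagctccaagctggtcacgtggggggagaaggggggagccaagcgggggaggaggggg

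TGACG, the core of the cyclic AMP response element (CRE), stood in the windows of Fos, Fosb, Junb, Atf3 and Klf4, 5 of 8 members, and in 17.8% of all 32851 promoters. Fos held it at 2 places, from 129 to 125 and from 66 to 62 bases before the start. In Atf3 it read CGTCA, the opposite strand, from 7 to 3 bases before the start. TGACNTCA, the CRE-like form of which the Jun promoter is the known example, read TGACATCA in Jun (45 to 38 bases before the start) and in Klf6 (119 to 112 bases before it), and 7.49% of all promoters held a match. TGACG lies within TGACNTCA where N is G, the full CRE TGACGTCA of 1.55% of promoters. Neither that full CRE nor TGANTCA, the AP-1 site (6.75% of promoters), nor the CArG box bound by SRF (1.47%) stood in any of the 8 windows. GCGNGGGCG, the motif of EGR proteins (4.7% of promoters), stood in Fosb and at 2 places in Klf4. Both strands were searched, the motifs were picked with the sequences in view, and a match is a run of letters and no more. Bases outside these windows, and the promoters of Egr1 and Ier2, were not searched, so sites there would not be seen.

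The arrays had a similar scale as deposited, with 75th percentiles of 83 to 104. Intensities pile up at the bottom of the scale, where 56.6% to 59.2% of probe sets per array were at 10 or below, a range referred to here as near the lower limit. Array number, 3 or 4 per group, limits the precision. The labelled states were borne out by their summed markers: the summed intensity of 6 activated or dividing markers (Mki67 and Egfr among them) was 29670 to 32727 on activated arrays against 374 to 2726 on the others, and that of 7 astroglial markers was 18349 to 27779 against 75206 to 81543. In the tests described below, 5 of the 6 were called higher and 5 of the 7 lower against either other group. Egfr and Gfap were among those not called against quiescent cells. All groups are bulk samples, in which fewer cells that make an RNA cannot be told apart from less RNA per cell.

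Activated cells had more Fos, Ier2 and Atf3 RNA than quiescent cells, and more Fos, Jun, Egr1, Ier2 and Atf3 RNA than irradiated cells. Tests were made with limma on log2(intensity + 16), with calls made at 0.05 after adjustment over all genes. Differences are on that log2 scale, which understates changes of dim genes. Against quiescent cells 3 of the 10 members rose and none fell, where 2.9% of all genes were called higher and 3.12% lower (6.02% in either direction). Against irradiated cells 5 rose and none fell, where 3.41% of all genes were called higher and 3.69% lower (7.1% in either direction). Between irradiated and quiescent cells limma called none of the 10 (2 had an unadjusted p under 0.05), where 0.011% of all genes were called (0.0055% in each direction) and 3.97% had an unadjusted p under 0.05. The median difference of the 10 members was 1.27 for activated minus quiescent, -0.92 for irradiated minus quiescent and 1.82 for activated minus irradiated cells, and that of all genes was 0 in each. These comparisons share samples, so they are not independent of one another.

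**Figure D1:**
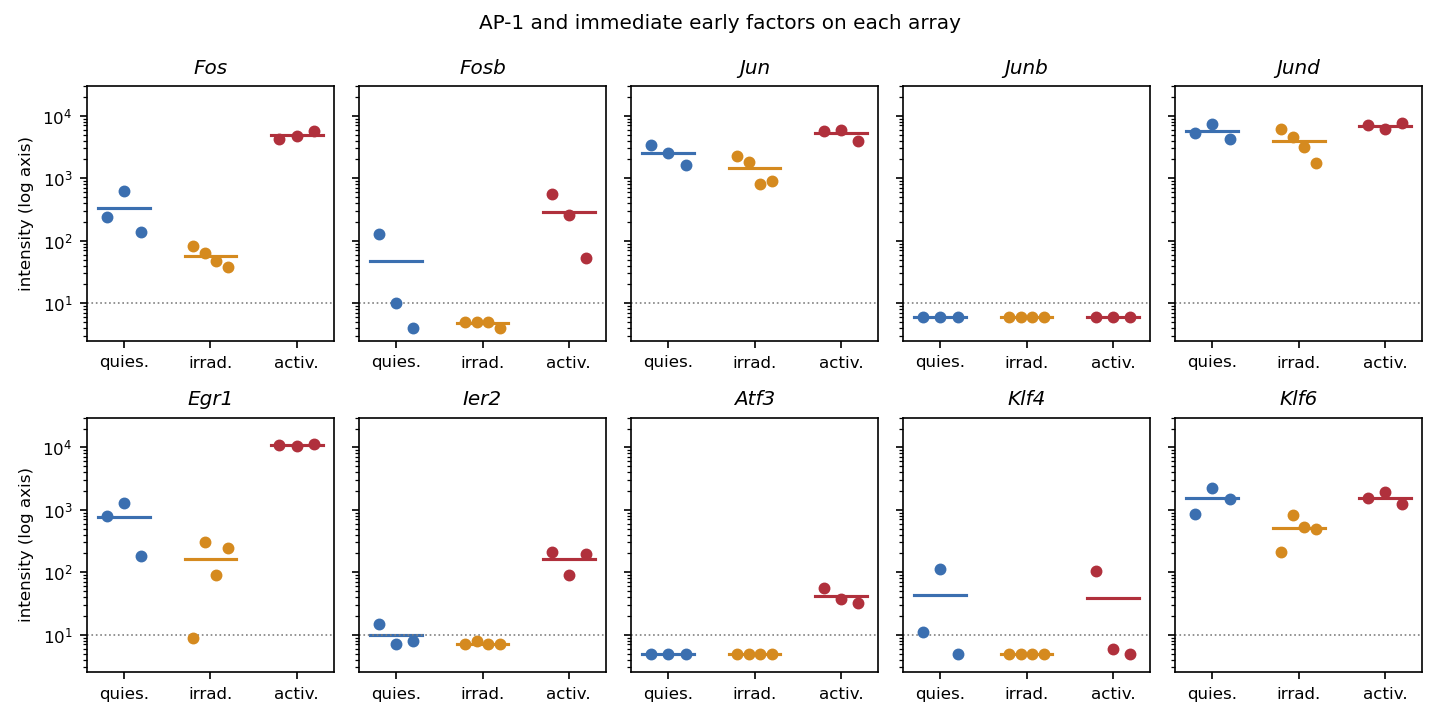
Deposited intensity (log scale) of the probe set used for each of the 10 members on each of the 10 arrays, grouped as quiescent, irradiated and activated. Bars mark the group means, and the dotted line at 10 marks the level taken as near the lower limit. Fos, Egr1, Ier2 and Atf3 are higher on all 3 activated arrays than on any other array, while Junb lies at 6 throughout.

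Fos encodes the founding member of the Fos family, which binds DNA as a partner of Jun. Its intensity was 244, 619 and 137 on the quiescent arrays, 83, 63, 48 and 38 on the irradiated arrays and 4246, 4821 and 5726 on the activated arrays. The 3 groups did not overlap: every activated array was above every quiescent one, and every quiescent array above every irradiated one. Fos averaged 333 ± 253 (SD, n = 3) in quiescent and 4931 ± 746 (SD, n = 3) in activated cells. It rose by a log2 difference of 4.06 ± 0.49 (SE; 95% interval 2.92 to 5.21; limma adjusted p = 0.002886). Activated cells were above irradiated cells, at 58 ± 19.6 (SD, n = 4), by 6.09 ± 0.46 (SE; adjusted p = 0.0002802). Both calls held under every alternative run.

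For irradiated minus quiescent cells the Fos difference was -2.02 ± 0.46 (SE; 95% interval -3.10 to -0.95). Its unadjusted p was 0.002693 and its limma adjusted p 0.7158, so it was not called. The value was -2.49 without quiescent replicate 4 and -1.08 with that replicate as the lone quiescent array, and adjusted p over the alternatives was 0.157 to 1. Quiescent replicate 4 was the lowest of its group for Fos and quiescent replicate 2 the highest.

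Fosb encodes another Fos family protein, known for its stable splice form in neurons. Its intensity was 129, 10 and 4 on quiescent arrays, 5, 5, 5 and 4 on irradiated arrays and 556, 263 and 53 on activated arrays. All irradiated arrays were thus near the lower limit, as were 2 of 3 quiescent arrays, and quiescent replicate 1 lay above activated replicate 3. The differences were 2.40 ± 0.93 (SE) for activated minus quiescent (limma adjusted p = 0.2532) and 3.42 ± 0.87 (SE) for activated minus irradiated (adjusted p = 0.06403). The latter passed the threshold under 6 of 22 alternatives, and its adjusted p ran from 0.0158 to 0.198.

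Jun encodes the main activating Jun protein, the target of the JNK kinases, whose gene is known to be driven in part by its own product. Its brighter probe set (1417409_at) read 3368, 2556 and 1609 on quiescent arrays, 2290, 1831, 822 and 919 on irradiated arrays and 5685, 5954 and 4013 on activated arrays. Every activated array was above every other array, while quiescent and irradiated arrays overlapped. Jun averaged 1466 ± 713 (SD, n = 4) in irradiated and 5217 ± 1052 (SD, n = 3) in activated cells, and it rose by 1.93 ± 0.43 (SE; limma adjusted p = 0.03731). That call was lost under 10 of 22 alternatives, 8 of them the removal of 1 array (any but quiescent replicate 4 or irradiated replicate 1), with an adjusted p of up to 0.132 (without activated replicate 2). Against quiescent cells (2511 ± 880, SD, n = 3) the difference was 1.09 ± 0.46 (SE; adjusted p = 0.2964) and was not called.

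Junb and Jund encode the other Jun proteins, JunB being induced like Jun and weaker as an activator, and JunD being present in resting cells. Junb was at 6 on each of the 10 arrays, so its single probe set (1415899_at) carried no information on the groups. The brighter Jund probe set (1449117_at) read 5327, 7445 and 4301 on quiescent, 6248, 4644, 3163 and 1766 on irradiated and 7022, 6075 and 7572 on activated arrays. The 3 groups overlapped, with irradiated replicates 3 and 4 the lowest of all. The Jund differences were 0.31 ± 0.45 (SE; 95% interval -0.73 to 1.35) for activated minus quiescent, -0.63 ± 0.42 (SE) for irradiated minus quiescent and 0.94 ± 0.42 (SE; 95% interval -0.03 to 1.91) for activated minus irradiated. None was called, with limma adjusted p of 0.9498, 0.9647 and 0.3161.

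Egr1 encodes a zinc finger factor whose promoter is a classic target of SRF and Elk1. Its intensity was 806, 1289 and 185 on quiescent arrays, 9, 305, 91 and 242 on irradiated arrays and 10984, 10375 and 11415 on activated arrays. The activated arrays lay close together and far above all others, while the quiescent and irradiated arrays each spread widely and overlapped. Egr1 rose from 162 ± 136 (SD, n = 4) in irradiated to 10925 ± 523 (SD, n = 3) in activated cells, by 6.49 ± 0.99 (SE; limma adjusted p = 0.007607). Against quiescent cells (760 ± 553, SD, n = 3) the difference was 4.19 ± 1.05 (SE; 95% interval 1.73 to 6.65). With an adjusted p of 0.06858 it was not called, although the groups did not overlap. It passed under 4 of 22 alternatives, with adjusted p from 0.0154 (without the dimmest 50% of genes) to 0.277. The call against irradiated cells was kept under 21 of 22. For irradiated minus quiescent cells the difference was -2.30 ± 0.99 (SE; 95% interval -4.60 to 0.01; adjusted p = 0.9647), and it was -1.54 without irradiated replicate 1 and -0.72 with quiescent replicate 4 as the lone quiescent array.

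Ier2 encodes a small nuclear protein of the immediate early class. Its intensity was 15, 7 and 8 on quiescent, 7, 8, 7 and 7 on irradiated and 210, 92 and 196 on activated arrays. Outside the activated arrays, quiescent replicate 1 alone was above the near-limit level. Against irradiated cells, at 7.25 ± 0.50 (SD, n = 4), Ier2 was higher in activated cells by 2.90 ± 0.25 (SE; limma adjusted p = 0.0005493), and against quiescent cells by 2.75 ± 0.27 (SE; adjusted p = 0.001095). These sizes too follow the pseudocount, at 3.83 and 3.56 with 4 and 1.65 and 1.59 with 64. The irradiated minus quiescent difference was -0.15 ± 0.25 (SE; adjusted p = 1), between values that nearly all lie near the limit.

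Atf3 encodes a stress-induced ATF protein that pairs with Jun proteins or with itself, and often represses. It stood at 5 on all 7 quiescent and irradiated arrays and at 57, 37 and 32 on the activated arrays. Activated replicate 1 was the highest, and no other array came above the near-limit level. On the log2(intensity + 16) scale the difference was 1.44 against either other group, with an SE of 0.13 in both cases (limma adjusted p = 0.0008623 against quiescent and 0.0005493 against irradiated cells). Since the other groups lie near the lower limit, its size follows the pseudocount: it was 2.32 with 4 and 0.61 with 64. The calls of Ier2 and Atf3 held under every alternative that gave a value.

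Klf4 and Klf6 encode Krüppel-like zinc finger factors, Klf4 being known from reprogramming to pluripotency and Klf6 being widely expressed and induced by injury. The brighter Klf4 probe set (1417394_at) read 11, 113 and 5 on quiescent arrays, 5 on each irradiated array and 104, 6 and 5 on activated arrays. Its level thus rested on quiescent replicate 2 and activated replicate 1. No Klf4 difference was called, and its direction between activated and quiescent cells (-0.13 ± 0.85, SE; limma adjusted p = 1) turned when 1 of several arrays was left out, to 0.68 without quiescent replicate 2.

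The brightest Klf6 probe set (1418280_at) read 865, 2255 and 1499 on quiescent, 209, 826, 530 and 492 on irradiated and 1555, 1924 and 1237 on activated arrays. All irradiated arrays were below all quiescent and all activated ones, which overlapped each other. The mean was 1540 ± 696 (SD, n = 3), 514 ± 252 (SD, n = 4) and 1572 ± 344 (SD, n = 3) in quiescent, irradiated and activated cells. The differences were 0.11 ± 0.52 (SE; 95% interval -1.11 to 1.33) for activated minus quiescent, -1.60 ± 0.49 (SE) for irradiated minus quiescent and 1.71 ± 0.49 (SE) for activated minus irradiated. None was called: the limma adjusted p was 1, 0.9647 (unadjusted 0.01262) and 0.09662. The last passed under 1 of 22 alternatives, array weights (adjusted p = 0.03792). The irradiated minus quiescent value fell to -0.08 when all probe sets of the gene were averaged.

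**Figure D2:**
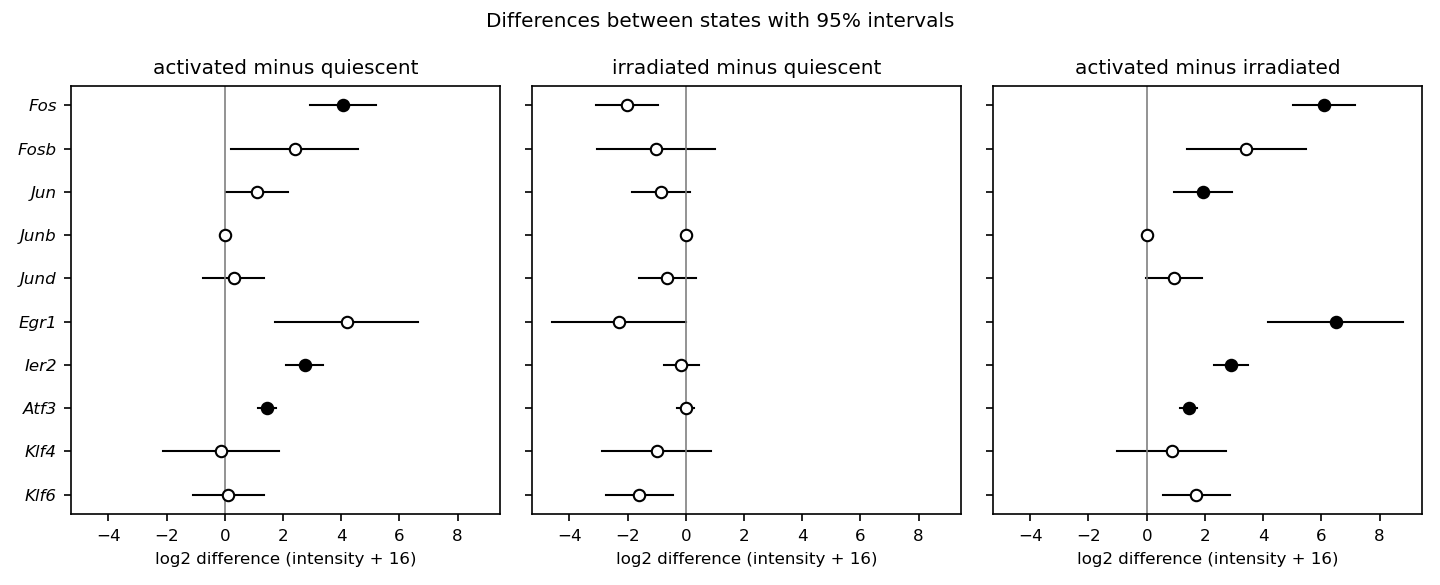
Log2 difference with its 95% interval for each member in the 3 comparisons, where filled symbols mark differences called at an adjusted p under 0.05. Fos, Ier2 and Atf3 are called in both comparisons with activated cells, Jun and Egr1 in the one with irradiated cells, and no member in irradiated minus quiescent.

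The arrays of the groups were also compared by their order alone. All activated arrays were above all quiescent arrays for 5 of the 10 members (Fos, Jun, Egr1, Ier2 and Atf3), where 9.84% of all genes were so separated upwards and 9.47% downwards. They were above all irradiated arrays for 7 members, the same 5 with Fosb and Klf6, where the shares were 8.23% upwards and 7.96% downwards. All irradiated arrays were below all quiescent arrays for Fos and Klf6, 2 of 10, where the shares were 1.4% downwards and 1.56% upwards. No member was separated the other way in any comparison. Of the irradiated minus quiescent differences 8 were negative and none positive, while Junb and Atf3 were at 0. The share of all genes with a negative difference was not counted. All irradiated arrays of Fosb, Klf4 and Ier2 were near the lower limit, which left little room for a positive difference. The negative values of these genes came mostly from 1 quiescent array each, at 129 for Fosb, 113 for Klf4 and 15 for Ier2. The counts of order and sign rest on the probe set used for each gene, and the irradiated minus quiescent order of Klf6 was not shared by its other probe sets.

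The members with several probe sets gave unequal pictures. The dimmer Jun probe set (1448694_at) read 460, 342 and 229 on quiescent, 573, 42, 700 and 167 on irradiated and 2197, 2088 and 877 on activated arrays. Its activated arrays were again above all others, with a difference of 2.64 against irradiated cells when every probe set was fitted on its own (limma adjusted p = 0.197). The dimmer Jund probe set (1440265_at) was at 5 on every array but quiescent replicate 1, at 22. The dimmer Klf4 probe set (1417395_at) read 32, 14 and 6 on quiescent, 5, 5, 5 and 6 on irradiated and 11, 18 and 23 on activated arrays, so that all activated arrays lay above all irradiated ones (difference 0.63, adjusted p = 0.2859).

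Klf6 had the widest disagreement. The probe set 1447448_s_at read 248, 12 and 31 on quiescent, 148, 111, 12 and 97 on irradiated and 819, 575 and 840 on activated arrays. Here the activated arrays were above all others, by 3.42 against quiescent and 3.06 against irradiated cells (limma adjusted p = 0.1161 and 0.1221). The probe set 1433508_at read 156, 74 and 248, then 462, 26, 27 and 1560, then 508, 992 and 30 in the same order, with full overlap of the groups. The remaining probe sets, 1427742_a_at and 1459718_x_at, reached 253 and 31 at most and also overlapped. For irradiated minus quiescent cells 1433508_at, 1447448_s_at, 1427742_a_at and 1459718_x_at differed by 0.26, 0.36, 0.53 and 0.04. None of these was called, and the arrays overlapped in each. What part of the transcript each probe set reads was not examined here.

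**Figure D3:**
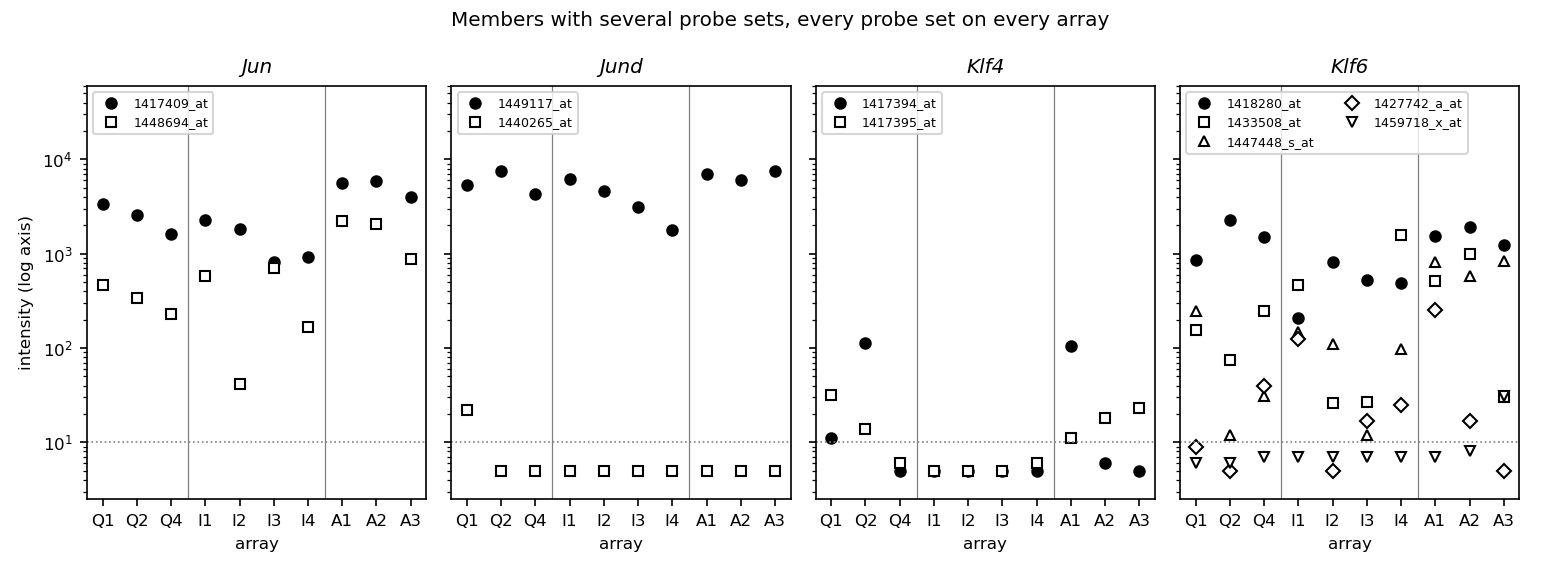
Deposited intensity (log scale) of each probe set of Jun, Jund, Klf4 and Klf6 on the 10 arrays, with filled symbols for the probe set used for the gene. Arrays are labelled Q, I or A for quiescent, irradiated or activated, with the replicate number. The 2 Jun probe sets are both highest on activated arrays, while the 5 of Klf6 differ in which arrays are high.

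The 5 lists of other genes of the pathway held 103 measured genes, of which 8 (7.77%) were called in each comparison with activated cells, close to the 6.02% of all genes called against quiescent and the 7.1% called against irradiated cells. The counts of the single lists are to be read beside those shares. Among 12 measured of 14 further AP-1 partners, meaning other Fos, ATF, BATF, JDP and Maf proteins, 1 (8.33%) rose and none fell in activated against either other group, and the median difference was -0.02 in both, beside 0 for all genes. The gene that rose was Maff, a small Maf protein without an activation domain: it was at 5, 9 and 5 in quiescent, 5 on each irradiated array and 20, 25 and 60 in activated cells. Its differences were 1.12 ± 0.25 (SE; limma adjusted p = 0.0458) and 1.20 ± 0.24 (SE; adjusted p = 0.02285), calls kept under 6 and 12 of 21 alternatives. Of the remaining Fos genes, Fosl1 was at 5 on every array. Fosl2 averaged 26.7, 5 and 20.7 in quiescent, irradiated and activated cells, with no call. It was at 5 on every array but quiescent replicate 1, at 70, and activated replicate 2, at 52.

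Among 21 measured of 27 upstream kinases and factors, 1 (4.76%) fell and none rose in activated cells against either group, near the shares over all genes, with medians of 0.37 against quiescent and 0 against irradiated cells. It was Mapk10, the JNK kinase gene best known from neurons, which read 6293, 4823 and 2581 in quiescent, 1423, 5759, 8343 and 3689 in irradiated and 77, 475 and 6 in activated cells. All activated arrays were the lowest, with differences of -5.42 ± 1.14 (SE; limma adjusted p = 0.0346) and -5.32 ± 1.07 (SE; adjusted p = 0.02491), kept under 10 and 14 of 22 alternatives. Srf averaged 151, 92.2 and 213 in the 3 groups in that order, and none of its differences was called.

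Of 37 other immediate early genes, 2 rose and 1 fell against quiescent cells (8.11% called, beside 6.02% of all genes), and 2 rose and 2 fell against irradiated cells (10.8%, beside 7.1%), with medians of -0.13 and 0. Btg2, an antiproliferative gene, rose from 64 ± 26 (SD, n = 3) in quiescent and 61.8 ± 12.4 (SD, n = 4) in irradiated to 776 ± 299 (SD, n = 3) in activated cells. Ier5, a regulator of heat shock factor, rose to 1097 ± 165 (SD, n = 3) from 69.3 ± 25.7 (SD, n = 3) and 128 ± 79.7 (SD, n = 4). Their differences against quiescent cells were 3.27 ± 0.34 (SE; limma adjusted p = 0.001494) and 3.75 ± 0.53 (SE; adjusted p = 0.005828), calls kept under 22 and 20 of 22 alternatives, the Ier5 value being 1.23 with its probe sets averaged. The 2 genes that fell moved against the members: Ccn1, a secreted matrix protein and YAP target, averaged 1272 ± 186 (SD, n = 4) in irradiated and 49 ± 16 (SD, n = 3) in activated cells, and Per1, a clock gene, 196 ± 27.3 (SD, n = 4) and 21.3 ± 22.5 (SD, n = 3). Their activated minus irradiated differences were -4.33 ± 0.19 (SE; adjusted p = 1.859e-05) and -2.66 ± 0.51 (SE; adjusted p = 0.02048). With the mean over its probe sets Ccn1 was not called (adjusted p = 0.268 against irradiated cells). The Per1 call was kept under 16 of 22 alternatives and lost under 6.

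The relatives of Egr1, which bind the same motif, were not called over all arrays. Egr2 read 8, 6 and 6 in quiescent, 6 or 7 in irradiated and 35, 14 and 6 in activated cells. Egr3 read 348, 10 and 5 in quiescent, 6, 13, 19 and 5 in irradiated and 164, 83 and 140 in activated cells, so the activated arrays lay above all irradiated ones but below quiescent replicate 1 (limma adjusted p = 0.2321 and 0.6467). Without quiescent replicate 1 Egr3 was called against both groups, with a difference of 2.59 against quiescent cells (adjusted p = 0.008632) and 2.43 against irradiated cells (adjusted p = 0.004134), and it passed under 2 and 3 of 22 alternatives in all. Myc, a target of the same growth signals, averaged 46.7, 61.2 and 28 in the 3 groups, with an adjusted p of 1 in each comparison.

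Among 19 feedback regulators, which shut the same kinase or stress pathways down again, 1 rose and 1 fell in each comparison with activated cells (10.5% called, beside 6.02% and 7.1% of all genes), with medians of 0 and -0.05. Dusp1, a phosphatase of JNK and p38 kinases, rose from 1019 ± 237 (SD, n = 3) in quiescent and 806 ± 417 (SD, n = 4) in irradiated to 4216 ± 533 (SD, n = 3) in activated cells, by 2.05 ± 0.45 and 2.51 ± 0.42 (SE; limma adjusted p = 0.0392 and 0.01128). Dusp6, a phosphatase of ERK kinases, fell against quiescent cells, from 636 ± 256 (SD, n = 3) to 73 ± 22.6 (SD, n = 3), by 2.81 on the log2 scale (adjusted p = 0.04959). Nfkbia, the inhibitor of NF-kB, was lower in activated than in irradiated cells (-3.72 ± 0.82, SE; adjusted p = 0.0361), but the value was -0.17 when all its probe sets were averaged. The call of Dusp1 against quiescent cells was kept under 11 of 22 alternatives, that of Dusp6 under 8 and that of Nfkbia under 9. Of 14 measured of 15 other KLF genes, 1 (7.14%, beside 6.02% of all genes) fell against quiescent cells and limma called none against irradiated cells (3 had an unadjusted p under 0.05), a count that was 1 or 2 under some alternatives. The gene that fell was Klf9, a glucocorticoid-responsive factor, which went from 8398 ± 2403 (SD, n = 3) to 2531 ± 879 (SD, n = 3), by -1.76 ± 0.39 (SE; adjusted p = 0.04285), kept under 8 of 22 alternatives. Between irradiated and quiescent cells limma called no gene of these 5 lists (7 had an unadjusted p under 0.05), where 0.011% of all genes were called; 4 of the lists reached 1 call under an alternative that left out quiescent arrays.

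**Figure D4:**
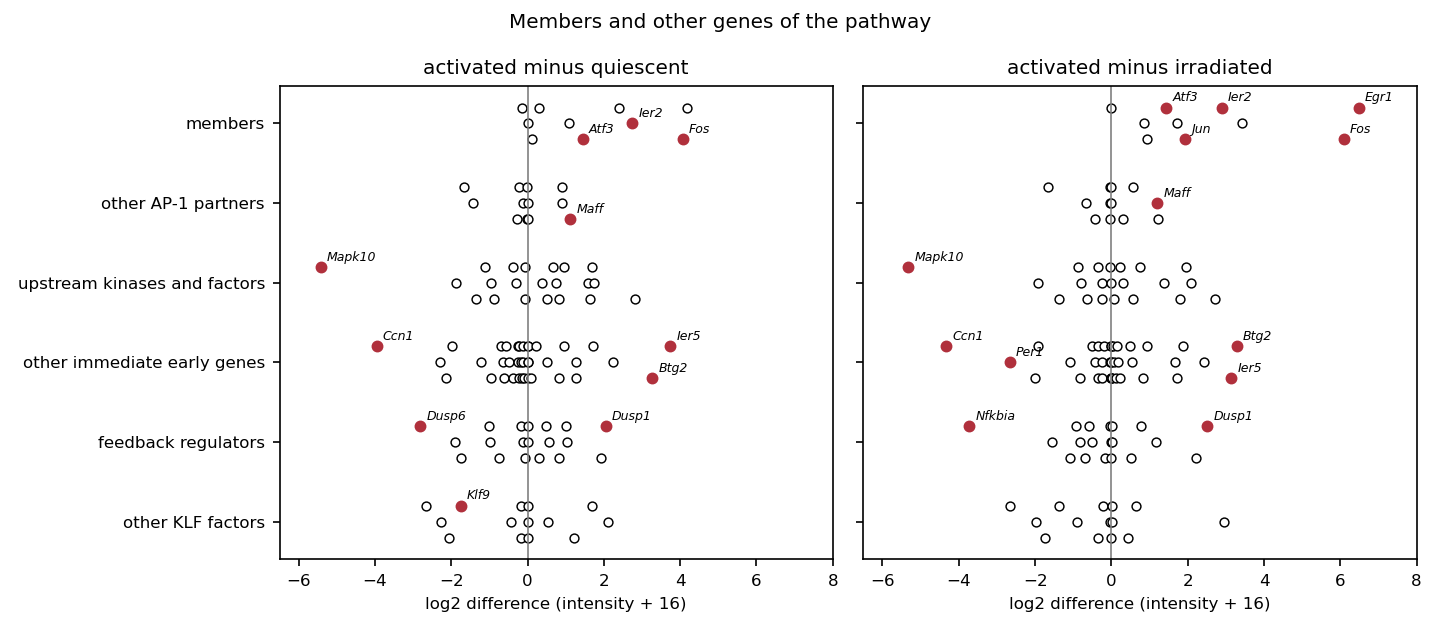
Log2 difference of every measured gene of the members and the 5 surrounding lists, for activated minus quiescent and activated minus irradiated cells, with called genes in red. By their median the members sit to the higher side in activated cells. Against quiescent cells Junb, Jund, Klf4 and Klf6 lie near 0 (0, 0.31, -0.13 and 0.11). Each other list is spread around 0 with 0 to 4 calls. In all, 7.77% of the genes of these lists were called in each comparison with activated cells, beside 6.02% and 7.1% of all genes.

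Markers of other cells moved with the same groups. The summed intensity of 5 neuroblast markers was 14913 to 20750 on activated, 289 to 1822 on quiescent and 152 to 1205 on irradiated arrays, and limma called 3 of the 5 higher against quiescent and 4 against irradiated cells. Those of 7 oligodendrocyte markers (1743 to 5156 on activated arrays against 16759 to 28115 on the others) and 5 choroid plexus markers (26 against 10016 to 20118, nearly all of it Ttr) were lower on activated arrays. So were those of 7 pericyte or smooth muscle markers (188 to 804 against 1538 to 9653, with Pdgfrb called lower against both groups) and 5 ependymal markers (35 to 150 against 656 to 2608, with Rarres2 called lower against both). Limma called none of 9 microglia markers in any comparison (0, 1 and 0 had an unadjusted p under 0.05 in activated minus quiescent, irradiated minus quiescent and activated minus irradiated): their sum was 199 to 4403 on activated, 53 to 1099 on quiescent and 55 to 2671 on irradiated arrays, and Tmem119, Trem2, Aif1 and C1qa were within the near-limit range throughout. The part of these cells in the levels of Fos, Egr1 and the other members was not tested.

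Within the quiescent group, replicates 1, 2 and 4 had endothelial sums (9 markers) of 790, 1289 and 45, in the same order as their Fos and Egr1 intensities. The dividing (1531, 2726 and 994), neuroblast (1134, 1822 and 289) and oligodendrocyte sums (20372, 28115 and 20319) ran in that order too, and those of the remaining lists did not. The pericyte or smooth muscle sums (7 markers) were 5942, 3488 and 1538. Replicate 1 also had the highest neuron marker sum, 14506 against 1439 and 543, and it was the replicate with the highest Fosb, Egr3 and Ier2. The irradiated arrays had endothelial sums of 82 to 141, with none of 9 endothelial markers called in either direction by limma in any comparison (2, 2 and 0 had an unadjusted p under 0.05, in the same order of comparisons). The part of these cells in the irradiated minus quiescent differences of Fos, Egr1 and Klf6 was not tested.

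**Figure D5:**
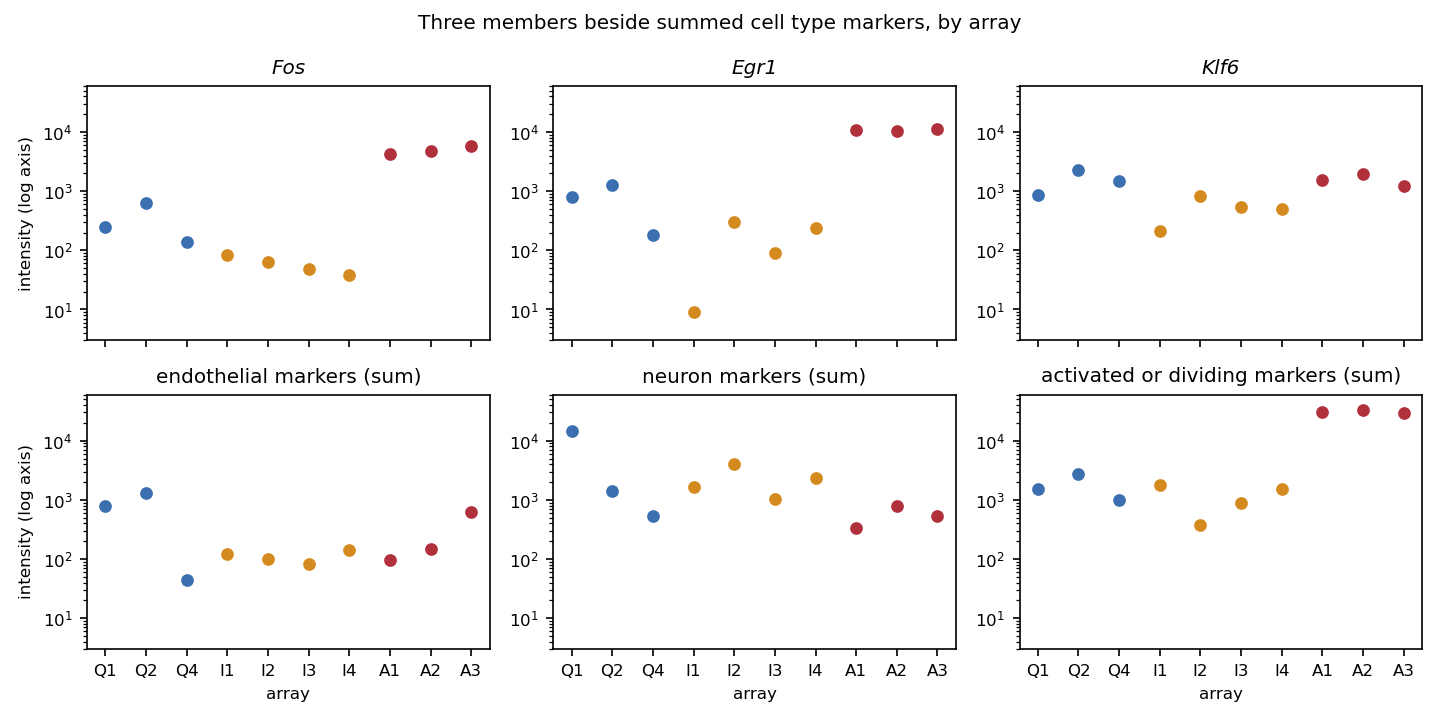
Deposited intensity (log scale) of Fos, Egr1 and Klf6, and summed intensity of the endothelial, neuron and activated or dividing markers, on each of the 10 arrays. Arrays are labelled Q, I or A for quiescent, irradiated or activated, with the replicate number. Fos, Egr1 and the dividing markers are highest on activated arrays. Within the quiescent group the endothelial and neuron sums are lowest on replicate 4.

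The genes most like each bright member were ranked by Pearson's r on log2(intensity + 16) over the 10 arrays, among 7150 genes with a mean intensity of at least 100. These r pool groups of unequal level, share arrays with the comparisons above and are given as a description. Fos was most like Mki67, the proliferation marker (r = 0.981), then Ctnnb1 (0.971) and Elavl2 (0.971). Egr1 was most like H2ax (0.971), Hnrnpr (0.970) and Hnrnph1 (0.955). Mki67 averaged 83.3 ± 74.7 (SD, n = 3) in quiescent, 12.8 ± 3.86 (SD, n = 4) in irradiated and 10428 ± 802 (SD, n = 3) in activated cells, so it shares with Fos both the high activated level and the order of the other groups. Fosb was most like Asns (0.986), Jun most like Sumo3 (0.939), Jund most like C230091D08Rik (0.930) and Klf6 most like Rc3h2 (0.936). Rc3h2 averaged 462 ± 182 (SD, n = 3), 62 ± 29.1 (SD, n = 4) and 516 ± 68.2 (SD, n = 3) in quiescent, irradiated and activated cells, the Klf6 pattern of a low irradiated group between like levels in the others.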

How the data were processed

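The deposited table holds 1 linear intensity per probe set and array, as whole numbers, and the method by which the authors derived the intensities is not given in the sources used here. RNA was amplified and labelled per the labels' protocols. Quiescent replicate 3 and activated replicate 4 hold no values and were not analysed here. Scan batches were not examined. Of 45037 probe sets, 34945 had 1 gene symbol in the platform annotation, 932 several and 9160 none; 34741 matched RefSeq (GRCm38.p6) by Entrez identifier, and 0 symbols were updated. Where a gene had several probe sets, the one of highest mean stood for it.

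The deposited intensities were taken to log2(intensity + 16), with no further normalization or filter. Groups were compared with limma 3.58.1 (R 4.3.3), with 3 group means in 1 fit over 10 arrays (7 residual degrees of freedom, prior 0.422), two-sided, with Benjamini-Hochberg adjustment over 18193 genes within each comparison. Errors are SD over arrays or SE of the fit. The scripts were tested on simulated data. The members, the gene lists and the tests were chosen with earlier results of these data known. All members are given; of the surrounding lists, the text gives at most the 4 genes with the smallest adjusted p called per list and comparison, and Fosl1, Fosl2, Srf, Egr2, Egr3 and Myc whether called or not. Of the 3 most like genes of each member of mean intensity 100 or more, part are given. Alternatives were pseudocounts of 4 and 64, quantile and 75th percentile scaling, removal of the dimmest 50% of genes, averaged or separate probe sets, 2-group fits, trend and robust moderation, array weights, a replicate block and removal of each array; quiescent replicate 4 as the lone quiescent array was added after seeing the data. Figures were drawn with matplotlib 3.10.9.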

Additional observations from a re-analysis of the deposited data

Results flagged for a closer look

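The Klf6 probe set 1427742_a_at stood out for irradiated replicate 1, at an intensity of 124 where the other irradiated arrays read 5, 17 and 25. The gap to the nearest array was 0.832 of the range of the group, above Dixon's critical value for 4 samples. For normally distributed values chance alone puts about 1 in 20 groups past that value, and 9 probe sets of the members were examined in this way. The rule was applied to the untransformed intensities, whose distribution was not examined, and not on the log2 scale of the tests. In the probe set used for Klf6 (1418280_at) the same array was the lowest of its group, at 209.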

How the results depend on the processing

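The number of members called was 3 or 4 for activated minus quiescent, 0 for irradiated minus quiescent and 4 to 7 for activated minus irradiated under every alternative, against 3, 0 and 5. Over all genes, calls for activated minus quiescent fell from 1095 to 694 with only 2 groups in the fit and to 459 with the replicate block, and for activated minus irradiated from 1292 to 710 with the block. For irradiated minus quiescent the count of 2 became 1 with a pseudocount of 4, quantile normalization, trend and robust moderation or array weights, 0 with only 2 groups or the block, 0 to 46 without each array in turn, and 284 with quiescent replicate 4 as the lone quiescent array, which is assumed to vary like the others. Same-numbered arrays did not deviate together (r of -0.03 to 0.02 over 8 pairs, 3 of 10 arrays closest to their own number). With so few arrays this check cannot exclude that the numbers pair the samples. With the block Egr1 lost its call in activated minus irradiated cells (adjusted p = 0.07062), and Fos, Ier2 and Atf3 kept theirs in both comparisons.

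Log2 differences that turned sign, none of them called, were the following. With quiescent replicate 4 alone, activated minus quiescent became 0.86 for Klf4 and 0.57 for Fosl2, and irradiated minus quiescent 0.053 for Fosb, 0.58 for Srf, 0.016 for Egr2 and 0.32 for Egr3. Array weights gave 0.24 for Fosl2, averaged probe sets 0.018 for Egr2 (irradiated minus quiescent), and the replicate block 0.070 for Egr2 and -0.28 for Myc there. Without each array in turn, activated minus quiescent ran from -0.96 to 0.68 for Klf4, -0.25 to 0.44 for Klf6, -0.68 to 0.56 for Fosl2 and -0.80 to 0.41 for Myc, irradiated minus quiescent from -0.047 to 0.016 for Egr2, -1.89 to 0.16 for Egr3 and -0.53 to 0.76 for Myc, and activated minus irradiated from -0.75 to 0.27 for Myc. The cause was not tested in any of these cases. Values near the lower limit bound what can be seen of Ier2, Atf3 and Fosb outside activated cells, of Klf4 in every group and of Junb on all arrays.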
